A study of Homo sapiens with 6 samples.

Results

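The genes described here are the 9 enzyme genes FDFT1, SQLE, LSS, MSMO1, NSDHL, HSD17B7, EBP, SC5D and DHCR7, which act between farnesyl diphosphate and cholesterol. They were taken by symbol from a table of 16670 genes, as a set proposed with earlier results of these data known. RNA had been sequenced from A549, an established human line of non-small cell lung cancer cells. Salinomycin cells (3 libraries) had received alisertib, which blocks the cell-division kinase Aurora A and was given to make the cells senescent, for 1 week and then 2.5 µM salinomycin, an ionophore that carries alkali metal ions across membranes, for 48 h. Untreated cells (3 libraries) had received alisertib for 1 week and no salinomycin. Both groups were thus exposed to alisertib, no library of cells without it was analysed here, and all libraries, which the labels call biological replicates, come from 1 cell line. The comparison asks how salinomycin changes the transcripts of senescent cells.

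Squalene is the first molecule committed to sterols. FDFT1 makes it from farnesyl diphosphate, SQLE and LSS turn it into lanosterol, the first sterol ring, and the later enzymes remove methyl groups and move double bonds until cholesterol is formed in the membrane of the endoplasmic reticulum. In human cells these genes are known to be induced when sterols in that membrane run low, through the SREBP transcription factors, which act together with NF-Y, a factor that binds the CCAAT box, and with Sp1. Genes of other steps of this branch (CYP51A1, TM7SF2 and LBR) are given further on for comparison.

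All 9 genes rose with salinomycin, and in all 9 the lowest salinomycin library lay above the highest untreated one. DHCR7 rose most, 9.70-fold, followed by SQLE (5.34-fold), MSMO1 (4.85-fold) and EBP (4.002-fold). HSD17B7, NSDHL and FDFT1 rose 2.47, 2.42 and 1.94-fold, and SC5D and LSS rose least, 1.53 and 1.38-fold. All 9 passed at a Benjamini-Hochberg adjusted p under 0.05 in limma, a linear model fitted across all genes, where 41.6% of the 13088 tested genes were higher and 40.2% lower. Of the 9 genes 6 rose at least 2-fold, against 16.8% of tested genes, and groups that did not overlap with salinomycin higher were found for 42.4% of tested genes. The median log2 change was 1.30 over the 9 genes and 0.02 over all tested genes. Members of a pathway known to be controlled together are not independent of each other, so these counts describe the 9 genes and carry no test.

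The start regions of the genes are shown first because the members moved together and such genes are known to carry CCAAT and Sp1 boxes. In the RefSeq promoter table (build GRCh38.p14), which gives 250 bases before and 50 after each annotated start, 7 of the 9 genes matched, all but FDFT1 and SQLE. Each of the 7 held at least 1 CCAAT box on either strand, whereas 39.7% of all 27305 gene symbols in the table (34.6% of its 35116 windows) did. NSDHL had 5 matches, of which a pair overlaps on opposite strands, MSMO1 had 4, EBP 3, DHCR7 and HSD17B7 2 each, and LSS and SC5D 1 each. A window with 2 or more matches was found for 12.9% of all symbols. The Sp1 box GGGCGG was present in 6 of the 7 genes (all but NSDHL) and in 48.3% of all symbols, and LSS held 7 copies. None of the 7 held an exact match, on either strand, to the sterol regulatory element TCACNCCAC (1.39% of symbols), the SREBP E-box TCACGTGA (1.18%), the ATF4 element TGATGCAA (1.08%) or the ER stress element, which contains the CCAAT box (0.0916%). With shares this low, a lack of exact matches in 7 genes shows little. The 6 mevalonate pathway genes with a window also lacked the sterol regulatory element and the SREBP E-box. DHCR7 and SC5D have a pair of annotated windows each, and the 1st listed DHCR7 window is the one with matches.

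The last 150 bases before the RefSeq start are printed 5′ to 3′ on the strand of the gene for the 4 genes among these 7 with large rises or many boxes, and for LSS, which rose least. Capitals mark CCAAT or its reverse complement ATTGG. The regions are chr11:71448394-71448543 (minus strand) for DHCR7, chr4:165327519-165327668 (plus strand) for MSMO1, chrX:48521658-48521807 (plus strand) for EBP, chrX:152830913-152831062 (plus strand) for NSDHL and chr21:46228775-46228924 (minus strand) for LSS. These RefSeq starts lie inside the GENCODE genes given further on, at 4475 bases from the outermost GENCODE start for DHCR7, 650 for EBP, 96 for NSDHL, 50 for LSS and 46 for MSMO1, so the stretches lie wholly (DHCR7 and EBP) or partly within those genes.
DHCR7: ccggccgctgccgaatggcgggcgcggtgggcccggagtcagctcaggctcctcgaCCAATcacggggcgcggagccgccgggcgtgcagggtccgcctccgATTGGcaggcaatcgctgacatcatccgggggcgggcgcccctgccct
MSMO1: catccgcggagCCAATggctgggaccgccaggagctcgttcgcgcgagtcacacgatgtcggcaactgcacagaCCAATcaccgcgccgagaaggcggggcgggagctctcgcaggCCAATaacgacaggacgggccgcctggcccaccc
EBP: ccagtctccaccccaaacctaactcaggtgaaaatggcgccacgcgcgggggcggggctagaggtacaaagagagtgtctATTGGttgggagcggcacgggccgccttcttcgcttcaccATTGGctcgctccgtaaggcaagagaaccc
NSDHL: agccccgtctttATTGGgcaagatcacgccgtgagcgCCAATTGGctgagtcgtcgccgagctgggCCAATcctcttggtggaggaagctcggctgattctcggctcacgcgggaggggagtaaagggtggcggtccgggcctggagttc
LSS: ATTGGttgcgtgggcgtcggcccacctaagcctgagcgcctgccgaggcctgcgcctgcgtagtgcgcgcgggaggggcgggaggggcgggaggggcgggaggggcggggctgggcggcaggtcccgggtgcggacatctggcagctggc
These stretches hold 2 boxes in DHCR7, 3 in MSMO1, 2 in EBP, 4 in NSDHL and 1 in LSS, where it is at the far end of the stretch. The order by number of boxes was not the order by rise: NSDHL, with the most, rose 2.42-fold, and DHCR7, with fewer, rose 9.70-fold. LSS and SC5D, with 1 box per window, the fewest, also rose least. The stretches were chosen partly for many boxes, and a relation between boxes and rise was not tested. A match is a description of letters and shows no binding.

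FDFT1 encodes squalene synthase, which joins farnesyl diphosphate molecules into squalene (chromosome 8, 11795573 to 11839309, GRCh38, GENCODE release 29). Its level was 4148, 4600 and 4356 normalised units in the salinomycin libraries and 2279, 2281 and 2202 in the untreated libraries. Normalised units are the authors' rescaled gene values after a further trimmed-mean scaling between libraries. The groups stood clear of each other, with the lowest salinomycin value 1.82 times the highest untreated one. The means were 4368 ± 226 and 2254 ± 44.8 units (SD, n = 3 each), a log2 change of 0.95 (SE 0.051; 95% interval 0.84 to 1.07; limma adjusted p = 5.32e-09). A noncoding RNA gene on the opposite strand overlaps 4.31% of the FDFT1 exon length. Whether the counting used strand was not given in the sources used here, so reads of these genes cannot be told apart there.

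SQLE encodes squalene epoxidase, an oxygen-using and often rate-limiting enzyme of the branch (chromosome 8, 124998497 to 125022283). It had 5932, 6150 and 6091 units with salinomycin, against 1150, 1085 and 1167 units in untreated cells. The coefficient of variation of the salinomycin libraries was 1.86%, the smallest of the 9 genes in that group. The log2 change was 2.42 (SE 0.049; 95% interval 2.31 to 2.52; limma adjusted p = 2.17e-12). SQLE ranked 438th of the 13088 tested genes by log2 change.

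LSS encodes lanosterol synthase, which closes the sterol rings (chromosome 21, 46188141 to 46228824). Its levels were 739, 724 and 800 units with salinomycin and 561, 508 and 567 units in untreated cells. The groups were separate but close, the lowest salinomycin value being 1.28 times the highest untreated one. The log2 change of 0.47 was the smallest of the 9 (SE 0.069; 95% interval 0.32 to 0.62; limma adjusted p = 5.14e-05), and LSS ranked 4233rd. Antisense genes on the opposite strand cover 10.6% of its exon length, and whether the counting used strand was not given in the sources used here, so reads of the gene and of those antisense genes cannot be told apart.

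**Figure D1:**
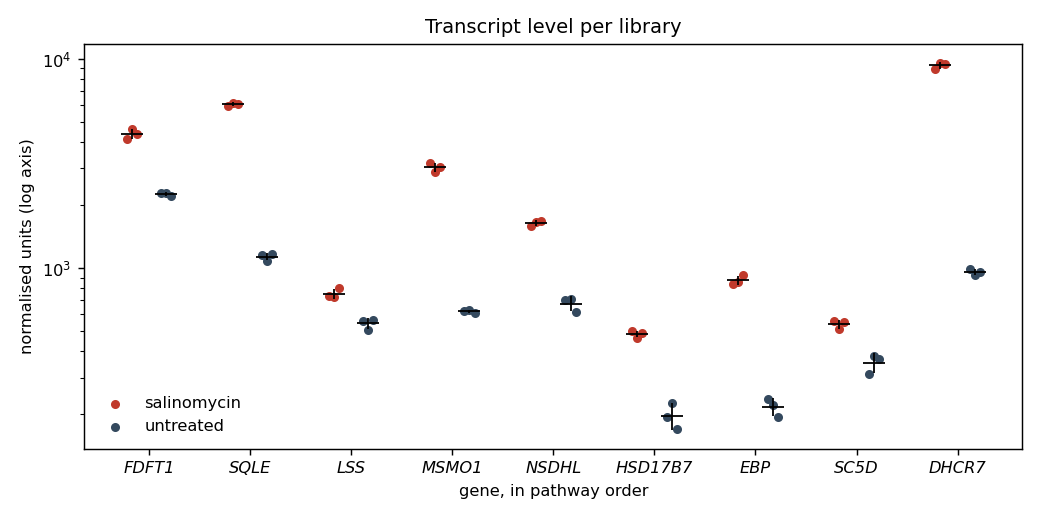
Normalised units (log axis) of the 9 genes in pathway order, salinomycin libraries in red and untreated libraries in dark blue, 1 point per library, with the mean (dash) and SD (bar, n = 3). The salinomycin points lie above the untreated points in every gene, with the widest gap in DHCR7 (9270 and 955 units) and the narrowest in LSS (754 and 545 units).

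MSMO1 encodes the oxidase that starts removal of the methyl groups at carbon 4 of the sterol ring (chromosome 4, 165327623 to 165343160). It had 3159, 2874 and 3047 units with salinomycin, against 623, 632 and 613 units in untreated cells. The untreated libraries had a coefficient of variation of 1.57%. Counting error alone, at the fewest estimated reads of this gene, would give 4.58%, so the small spread is no measure of precision. The log2 change was 2.28 (SE 0.054; 95% interval 2.16 to 2.40; limma adjusted p = 6.88e-12).

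NSDHL and HSD17B7 encode the dehydrogenase and the ketone reductase that complete each round of that demethylation. NSDHL (X chromosome, 152830967 to 152869729) had 1580, 1660 and 1675 units with salinomycin and 707, 710 and 614 units in untreated cells. Its log2 change was 1.28 (SE 0.067; 95% interval 1.13 to 1.42; limma adjusted p = 3.98e-09). HSD17B7 (chromosome 1, 162790702 to 162812817) had 498, 464 and 492 units with salinomycin and 194, 228 and 170 units in untreated cells. Its untreated libraries spread most of all members, with a coefficient of variation of 14.8%, and still did not reach the salinomycin libraries. The log2 change was 1.30 (SE 0.104; 95% interval 1.08 to 1.53; limma adjusted p = 1.91e-07). GENCODE lists the pseudogenes HSD17B7P1 and HSD17B7P2, among which counting could have split reads, so the HSD17B7 level is uncertain.

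EBP encodes the isomerase that moves the ring double bond from the C8 to the C7 position (X chromosome, 48521158 to 48528716). It had 843, 853 and 926 units with salinomycin, against 238, 222 and 194 units in untreated cells. The log2 change was 2.001 (SE 0.086; 95% interval 1.81 to 2.19; limma adjusted p = 7.00e-10), the largest among the genes between MSMO1 and DHCR7 in the order of steps.

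SC5D encodes lathosterol oxidase, which adds a double bond and makes 7-dehydrocholesterol (chromosome 11, 121292453 to 121308694). It had 560, 510 and 552 units with salinomycin and 310, 381 and 368 units in untreated cells. As in LSS, the groups were near each other, at 1.34 times from the highest untreated to the lowest salinomycin value. The log2 change was 0.62 (SE 0.088; 95% interval 0.43 to 0.81; limma adjusted p = 3.49e-05).

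DHCR7 encodes the reductase that removes the C7 double bond, the last step before cholesterol on one route (chromosome 11, 71428193 to 71452868). It had 8916, 9524 and 9370 units with salinomycin, against 986, 927 and 953 units in untreated cells. The lowest salinomycin library was 9.04 times the highest untreated one. The log2 change was 3.28 (SE 0.049; 95% interval 3.17 to 3.39; limma adjusted p = 3.22e-13), which ranked 219th of 13088 tested genes. SC5D and DHCR7, which act on consecutive intermediates, thus held the 2nd smallest and the largest change of the 9.

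**Figure D2:**
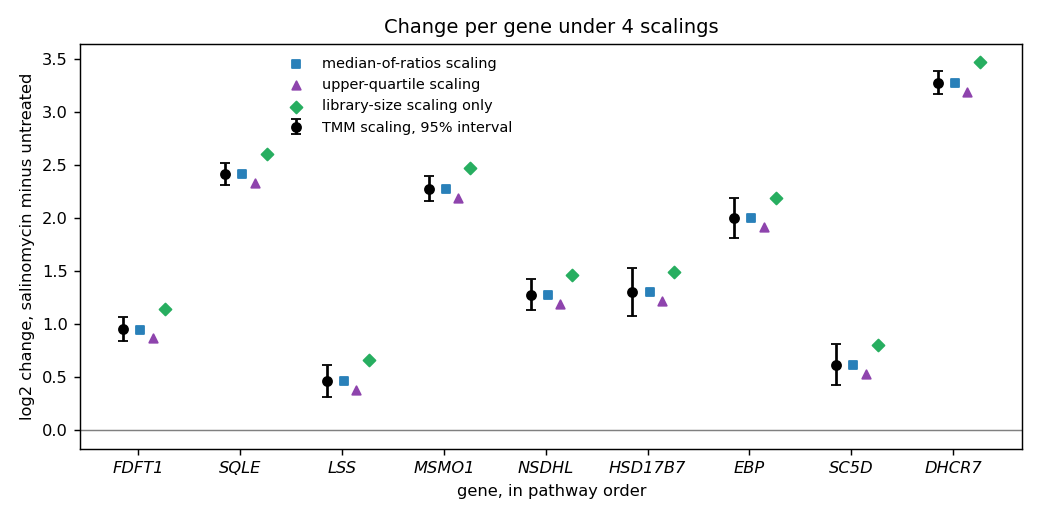
Log2 change per gene, salinomycin minus untreated, in pathway order, with trimmed-mean (TMM) scaling and its 95% interval in black, and beside it the values scaled by library size, by upper quartile and by median of ratios. Every value lies above 0, from 0.38 (LSS, upper-quartile) to 3.47 (DHCR7, library-size).

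The scaling sets where no change lies. With library-size scaling alone the median over the whole tested table was 0.21 on the log2 scale, against 0.02 with TMM, and the 9 genes moved with it: LSS to 0.66 and DHCR7 to 3.47. In the authors' deposited table, which compares the rescaled values with no further scaling, the fold changes were 2.22 for FDFT1, 6.11 for SQLE, 1.58 for LSS, 5.58 for MSMO1, 2.77 for NSDHL, 2.81 for HSD17B7, 4.56 for EBP, 1.75 for SC5D and 11.1 for DHCR7. The order of the 9 genes by size was the same as in the TMM-scaled values. Scaling shifts the log2 changes of all genes nearly alike and the libraries are the same, so this order is no separate check.

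Ratios within a library between neighbours in the gene list do not depend on that scaling, and they show that the genes rose unequally. Listed neighbours need not be neighbouring steps: steps of other genes, such as CYP51A1, lie between LSS and MSMO1. In 7 of 8 pairs of listed neighbours the ratios of the salinomycin libraries did not overlap those of the untreated libraries. How often this holds for other gene pairs was not computed. For single genes, groups without overlap and with salinomycin higher made up 42.4% of tested genes. With 3 against 3 libraries the smallest p that an exact permutation test can give is 0.1, which these 7 reached (two-sided; adjusted over the 8 pairs, p = 0.114), so none could pass 0.05. The log2 ratio of DHCR7 to SC5D was 4.10 ± 0.116 with salinomycin and 1.44 ± 0.201 in untreated cells (SD, n = 3 each), a shift of 2.66. MSMO1 over LSS shifted by 1.81 and SQLE over FDFT1 by 1.46. For SQLE over FDFT1 the order turned over: the log2 ratio was 0.47 ± 0.0495 with salinomycin and -0.99 ± 0.078 in untreated cells. LSS over SQLE shifted by -1.95, SC5D over EBP by -1.38 and NSDHL over MSMO1 by -1.002, and EBP over HSD17B7 shifted by 0.70. The signs of the shifts alternated through the first 4 of these pairs in pathway order. Neighbouring pairs share a gene, so their shifts are not independent of each other. HSD17B7 over NSDHL was the pair that overlapped, at -1.76 ± 0.087 with salinomycin and -1.78 ± 0.128 in untreated cells (shift 0.03; exact permutation p = 0.8, two-sided).

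**Figure D3:**
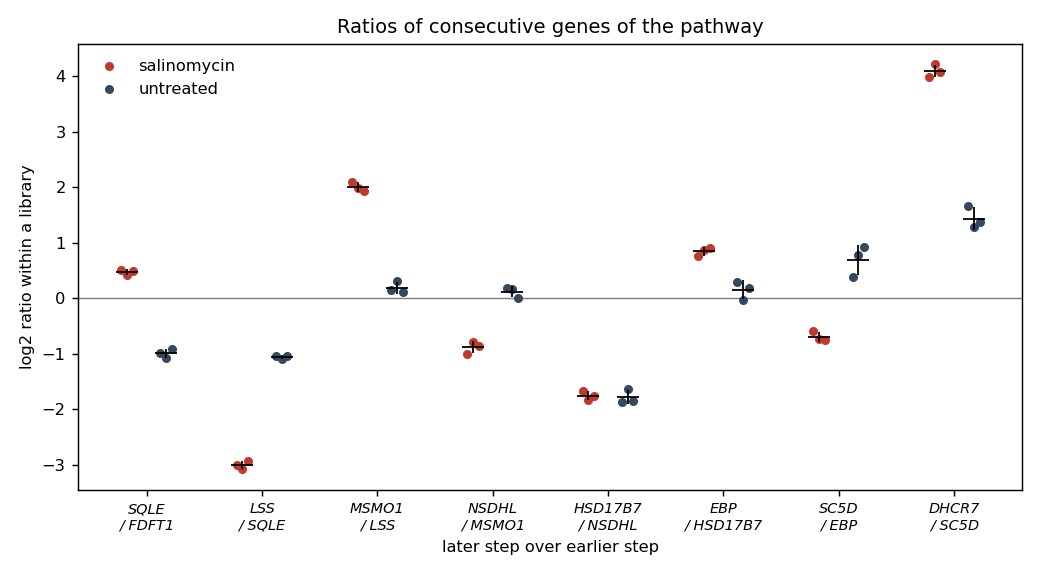
Log2 ratio of each gene to the gene listed before it in pathway order, computed within each library. Salinomycin libraries are in red and untreated libraries in dark blue, with mean and SD (n = 3). Listed neighbours need not be neighbouring steps, as the CYP51A1 step lies between LSS and MSMO1. The groups are apart in every pair but HSD17B7 over NSDHL, and DHCR7 over SC5D shifts most (4.10 and 1.44).

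Levels of different genes were compared per kilobase of exon. With salinomycin the order was DHCR7 (3477 ± 119 units per kb), SQLE (2040 ± 37.9), MSMO1 (1194 ± 56.7), FDFT1 (951 ± 49.3), NSDHL (821 ± 25.5), EBP (492 ± 25.5), HSD17B7 (346 ± 12.9), SC5D (202 ± 10.01) and LSS (140 ± 7.49; SD, n = 3). The libraries of no neighbours in that order overlapped (0 of 8 pairs). In untreated cells FDFT1 led with 491 ± 9.75 units per kb, before SQLE (382 ± 14.6), DHCR7 (358 ± 11.1), NSDHL (339 ± 27.4), MSMO1 (246 ± 3.85), HSD17B7 (140 ± 20.8), SC5D (132 ± 14.03), EBP (123 ± 12.5) and LSS (101 ± 6.08). There 4 of 8 neighbouring pairs overlapped, those of SQLE with DHCR7, DHCR7 with NSDHL, HSD17B7 with SC5D and SC5D with EBP. LSS was lowest in both groups. This order also rests on the exon lengths used, which join all annotated coding transcripts (13 for FDFT1, 4 for LSS and 1 for EBP). Other lengths were not tried. From the highest to the lowest gene the level per kb differed 24.8-fold with salinomycin and 4.84-fold in untreated cells.

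**Figure D4:**
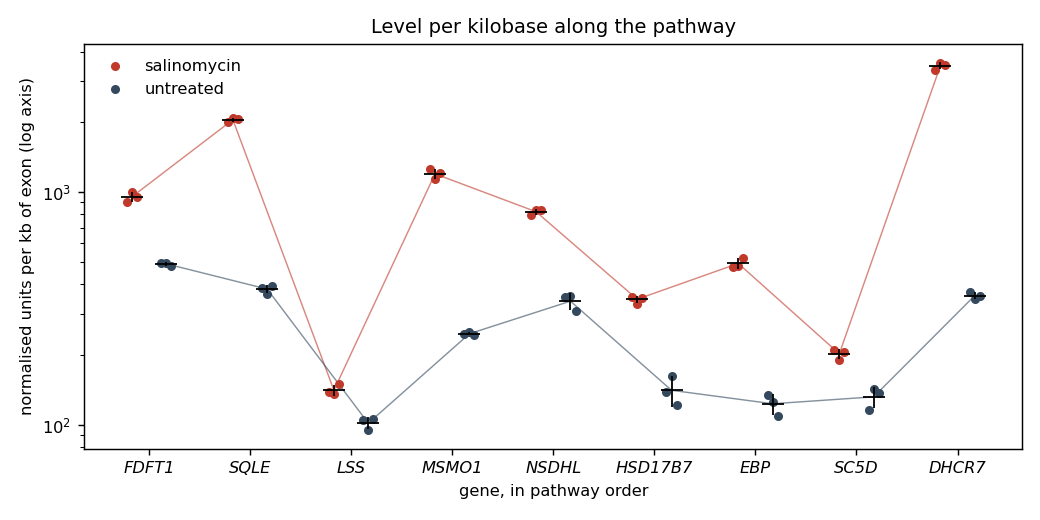
Normalised units per kilobase of exon (log axis) along the pathway, salinomycin in red and untreated in dark blue, 1 point per library, with mean, SD (n = 3) and a line through the means. The salinomycin line has peaks at SQLE, MSMO1 and DHCR7 (2040, 1194 and 3477) and low points at LSS and SC5D (140 and 202), and the untreated line is flatter.

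The 9 genes together took 0.177% ± 0.00212 of the deposited values in salinomycin libraries and 0.0399% ± 0.000479 in untreated libraries (SD, n = 3 each). DHCR7 made up 34.3% of their summed units with salinomycin and 13.7% in untreated cells. For FDFT1 the shares were 16.2% with salinomycin and 32.4% in untreated cells, although its own level rose. LSS held 2.79% of the sum with salinomycin and 7.84% in untreated cells, and EBP held a near equal share in both groups (3.23% and 3.13%).

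Other genes of the branch, which are not among the 9, did not move as one. CYP51A1, the lanosterol demethylase whose step lies between LSS and MSMO1, rose 3.98-fold, with 84.3 to 126 units in salinomycin libraries and 17.3 to 42.7 units in untreated libraries (log2 change 1.99, SE 0.280; limma adjusted p = 3.30e-05). Other annotated genes overlap 89.1% of its exon length in GENCODE, and how such reads were counted was not given, so its level is uncertain. TM7SF2 and LBR encode alternative enzymes for the step after CYP51A1, the sterol C14 reductase. TM7SF2 fell to 260 ± 8.19 units with salinomycin, against 431 ± 49.3 units in untreated cells (log2 change -0.72; limma adjusted p = 1.45e-05). LBR had 312 ± 25.3 units with salinomycin and 362 ± 14.4 units in untreated cells (log2 change -0.22; limma adjusted p = 0.0302), a call lost under library-size scaling (adjusted p = 0.778) and without salinomycin replicate 3, untreated replicate 1 or untreated replicate 2 (adjusted p = 0.115, 0.0582 and 0.0842). Of the 4 such genes considered 2 were higher and 2 lower, with a median log2 change of 0.17. This split is near that of all tested genes, 41.6% higher and 40.2% lower.

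Several of the 9 enzymes draw electrons from partner proteins. Of 7 genes for such electron donors and for other helpers (SEC14L2 and MARCHF6 among them) 5 were lower and 1 was higher (2 higher under library-size scaling), where 40.2% of all tested genes were lower and 41.6% higher. The median log2 change of the 7 genes was -0.72, against 0.02 over all tested genes. POR, the reductase that feeds electrons to squalene epoxidase and DHCR7, had 987 ± 30.5 units with salinomycin and 1719 ± 199 units in untreated cells (log2 change -0.79; limma adjusted p = 1.10e-06). CYB5A, a cytochrome b5 that serves sterol oxidases, had 432 ± 27.9 units with salinomycin and 1294 ± 28.4 units in untreated cells (log2 change -1.58; limma adjusted p = 4.50e-10). POR and CYB5A were picked with their values in view. SEC14L2, a lipid-binding protein known to stimulate squalene epoxidation, fell most, to 72.6 ± 9.14 units with salinomycin, against 607 ± 16.4 units in untreated cells. MARCHF6, the ubiquitin ligase that degrades squalene epoxidase, was the one called higher, by 0.20 on the log2 scale (limma adjusted p = 0.0148). That call was lost under upper-quartile scaling (adjusted p = 0.12) and without salinomycin replicate 1 or untreated replicate 1 (adjusted p = 0.0746 and 0.0626).

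Upstream of squalene, all 7 genes considered from the mevalonate pathway rose, with a median log2 change of 2.19. MVK, mevalonate kinase, rose most (log2 change 3.61). Among 11 genes of sterol control 5 were higher and 4 lower, with a median of 0.12. The shares over all tested genes were 41.6% higher and 40.2% lower. INSIG1, which retains the SREBP complex in the endoplasmic reticulum, rose by 3.62 on the log2 scale, and MYLIP, a ubiquitin ligase gene, fell by 2.21. SREBF2, the gene of the main SREBP factor of this pathway, had 2647 ± 53.0 units with salinomycin and 2683 ± 224 units in untreated cells and did not pass (limma adjusted p = 0.807), though it was called higher under library-size scaling (log2 change 0.175, adjusted p = 0.0173).

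**Figure D5:**
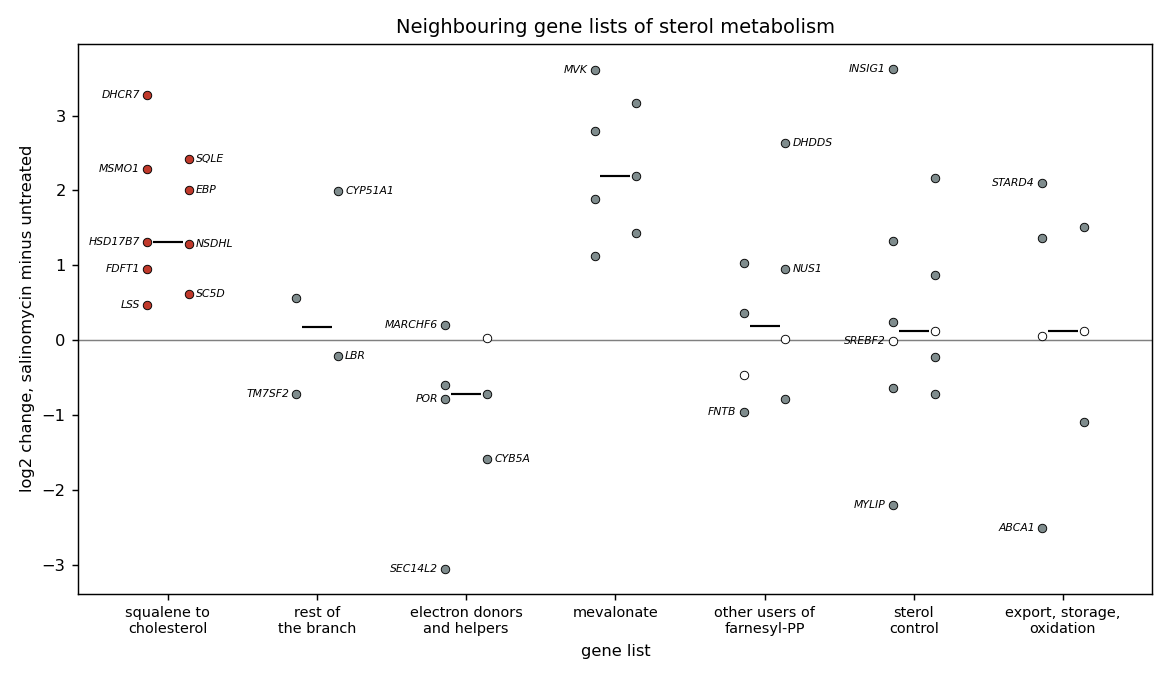
Log2 change, salinomycin minus untreated, of the 9 genes (red) and of 6 related lists (grey), 1 point per tested gene, filled where limma's adjusted p is under 0.05 and open where it is not, with the list median as a short line and names for the genes described. The 9 genes and the mevalonate genes lie wholly above 0 (medians 1.30 and 2.19), and the electron donors and helpers lie mostly below it (median -0.72).

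The median profile of the 9 genes over the 6 libraries was closest, among 11273 other tested genes with a mean of 50 or more units, to SLC37A3, ZNF384, MFSD1, COG5 and ERLEC1. Closeness was the mean absolute distance in log2 level, each gene relative to its own untreated mean, from the median of the 9 genes. It ranged over 0.0209 to 0.0244 for these 5 genes, whose log2 changes were 1.31 to 1.35. The median profile itself was 1.30 to 1.34 in salinomycin libraries and -0.023 to 0.022 in untreated libraries. Closeness to it thus means little more than a log2 change of similar size. Within the 9, NSDHL (0.0577) and HSD17B7 (0.0778) were nearest to that median profile, and DHCR7 was farthest (0.996).

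In the authors' deposited table of gene sets, the WikiPathways set for the cholesterol biosynthesis pathway had an enrichment score of 0.864, the highest of 21624 sets, and a normalised enrichment score of 2.205, the 17th highest (adjusted p = 7.25e-06). The Reactome set for cholesterol biosynthesis ranked 6th by enrichment score (0.785) and 14th by normalised enrichment score (2.246) in the authors' deposited table (adjusted p = 6.38e-06). A Gene Ontology set for regulation of cholesterol biosynthesis had a negative score there (-0.404; adjusted p = 0.507). These sets were picked by name after their values were seen, their members were not given, and their scores rest on the same libraries.

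Deposited totals lay between 16270249 and 16382904 per library, and estimated reads behind them between 13539959 and 19593759. Every one of the 9 genes had at least 132 estimated reads in every library. The mitochondrially encoded genes held 0.316% ± 0.0317 of the values in salinomycin libraries and 3.59% ± 0.192 in untreated libraries (SD, n = 3 each), and with them left out before scaling all 9 genes were still called higher. Of 4 epithelial markers 1 was higher and 3 were lower, and their summed level was 33270 to 37480 units with salinomycin and 149600 to 165400 units in untreated cells; the part of this in the results on the 9 genes was not tested. Summed alveolar type 2 markers reached at most 17.8 units with salinomycin and 2.13 in untreated cells, and summed endothelial markers 10.2 and 15.1 units. The alveolar sum with salinomycin came nearly all from NKX2-1, at a mean of 15.6 units against 0 in untreated cells (limma adjusted p = 2.18e-06). SFTPB and SFTPC stayed at or below 1.08 units. Summed fibroblast markers were 399 to 435 units with salinomycin and 522 to 748 units in untreated cells, nearly all from COL1A1, while COL1A2 and DCN stayed at or below 2.16 units. CD68, the leukocyte marker analysed, reached 14.1 units with salinomycin and 3.24 in untreated cells. All libraries come from 1 cell line, so these sums do not describe a mixture of tissue cell types. In bulk RNA, fewer cells of the line that express a marker and less of its RNA per cell cannot be told apart.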

How the data were processed

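RNA sequencing values of 6 libraries, 3 salinomycin and 3 untreated, were compared. Per the submitters' processing notes the build was GRCh38. Aligner, read counter and gene annotation are not given in the sources used here. Signal values, as deposited, are whole numbers that the authors rescaled between libraries, with 1 apparently added to each (lowest value 1). Per the file headers, the authors also gave log10 means, log2 fold changes, a linear ratio, a test score and p-values per gene, with 1563 genes lacking an adjusted p, and enrichment scores with p-values per gene set.

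After subtraction of that 1, each value was divided by its library total and trimmed-mean (TMM) factors with 30% and 5% trimming (1.0618 to 1.0795 for salinomycin and 0.9262 to 0.9433 for untreated libraries). Log2 of the value plus 1 was tested with limma 3.58.1 in R 4.3.3 with a trend of variance on mean and Benjamini-Hochberg adjustment over all tested genes. Tested genes had 10 or more in at least 3 libraries, which set 3582 aside. All fold changes of the fit are on this log2 scale. Reads were estimated from the rounding steps that rescaling leaves among low values. These reads are estimates and served for an alternative fit, depth and the check that no libraries of a group repeat each other (chi-square per gene 2.86 to 6.73). Exon lengths are unions of GENCODE release 29 basic coding transcripts. On simulated data (13006 genes) 28% of 1.2-fold, 94% of 1.5-fold, 96% of 2-fold and 100% of 4-fold changes were recovered, and 6 of 165 calls were false. The simulation changed only a small part of the genes, with the same fixed extra variation between libraries for every gene. In the data themselves 10717 of 13088 tested genes were called, so these rates need not hold there.

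The members, lists, motifs and naming rule were chosen with earlier results of these data known. Named besides the 9 genes were CYP51A1, TM7SF2, LBR, SREBF2 and INSIG1, the largest rise and fall past the threshold in each related list, and the 5 nearest profiles; other genes were named after their values were seen, and some genes of the related lists are not reported here. Alternatives were library-size, median-of-ratios and upper-quartile scaling, no filter and a filter of 50, pseudocounts of 0.5 and 8, limma-voom on estimated reads, a block for the replicate number, and each library left out in turn. Leaving out the mitochondrially encoded genes, and other scalings for the ratios, were added after seeing the data.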

Additional observations from a re-analysis of the deposited data

How the results depend on the processing

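The 9 genes kept their direction and an adjusted p under 0.05 in limma under all 16 alternatives, and 9 were called higher and 0 lower in each. The log2 change ranged over 3.19 to 3.47 for DHCR7, 2.33 to 2.61 for SQLE, 2.19 to 2.47 for MSMO1, 1.92 to 2.19 for EBP, 1.203 to 1.495 for HSD17B7, 1.19 to 1.47 for NSDHL, 0.87 to 1.14 for FDFT1, 0.53 to 0.81 for SC5D and 0.38 to 0.66 for LSS. Genes called over the whole table numbered 5003 to 6461 higher and 4353 to 5720 lower, within 1.5 times the counts given. The log2 ratio of HSD17B7 to NSDHL changed sign on leaving out libraries, between -0.018 and 0.10, with -0.018 without salinomycin replicate 1, -0.013 without untreated replicate 1 and -0.0055 without untreated replicate 3. The other 7 ratios kept their sign. With the replicate number as a block, 5325 genes were called higher and 5130 lower, and DHCR7 and LSS had adjusted p = 4.42e-11 and 0.000147. Deviations of same-numbered libraries had correlations of -0.172, -0.0131 and -0.0326, and no salinomycin library correlated best with the untreated library of its own number. These correlations show no pairing by number, but they cannot tell whether same-numbered libraries were handled together. The block changed no call among the 9 genes and the 6 related lists. Counting error alone, at the fewest estimated reads in any library, would give a coefficient of variation of 8.70% for HSD17B7 and 8.14% for EBP, whose untreated libraries had 14.8% and 10.1%, and the 3 libraries per group limit the precision.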

Other observations

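Other genes that use farnesyl diphosphate, the last molecule before squalene, moved in both directions. Of 8 such genes 4 were higher and 2 lower, with a median log2 change of 0.19. Over all tested genes 41.6% were higher and 40.2% lower, so a mixed list is common here. DHDDS, a subunit of the enzyme that makes dolichol for protein glycosylation, rose 6.22-fold, to 3311 ± 46.0 units with salinomycin, against 532 ± 38.7 units in untreated cells (SD, n = 3 each; limma adjusted p = 5.83e-12). NUS1, its partner subunit, was named after its value was seen and rose 1.92-fold (limma adjusted p = 1.05e-07). FNTB, a subunit of protein farnesyltransferase, had 127 ± 23.6 units with salinomycin and 246 ± 10.1 units in untreated cells (log2 change -0.96; limma adjusted p = 2.49e-05).

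Among 10 genes of sterol export, storage and oxidation 7 were tested, of which 3 were higher and 2 lower (5 higher under library-size scaling). Their median log2 change was 0.12, and over all tested genes 41.6% were higher and 40.2% lower. ABCA1, which exports cholesterol, fell to 239 ± 26.8 units with salinomycin, against 1373 ± 205 units in untreated cells (log2 change -2.51; limma adjusted p = 9.19e-10). STARD4, a sterol carrier, rose 4.30-fold, to 808 ± 122 units with salinomycin, against 186 ± 12.2 units in untreated cells (limma adjusted p = 2.62e-09).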
